A study of Mus musculus with 14 samples.

Results

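The genes described here are the named mouse genes that take up 500 kb or more of the genome. They were chosen from the coordinates in the deposited gene table, as rows with 1 symbol whose end lies at least 500000 bases after the start, and Erbb4, Nrg1, Kcnma1 and symbols starting with Dock or Col were left out, which removed 4 of 211 genes. This gave 207 genes of the 56414 in the table, or 206 symbols, since Pcdh15 is listed in 2 rows. No expression value entered the choice. The tumors were of 2 kinds, both grown in female C57Bl/6 mice. M/D-driven tumors arose in the mammary glands of mice that were 6 to 9 weeks old when they received a pellet releasing 50 mg of medroxyprogesterone acetate (MPA, a progestin) over 90 days, followed by 6 oral doses of 200 µL of the carcinogen 7,12-dimethylbenz[a]anthracene (DMBA) at 5 mg/mL. AT3 tumors grew under the skin after the injection of 1000000 cells of a mouse mammary carcinoma line, so each of them descends from the same cultured line. Mice were randomized when tumors reached 0.25 cm2 and either stayed untreated or drank water with 0.5% nicotinamide (NAM, the amide form of vitamin B3) for 10 days. Messenger RNA of whole tumors was sequenced from 4 untreated and 4 NAM-treated M/D tumors and from 3 untreated and 3 NAM-treated AT3 tumors, with 1 library per tumor. The question asked of these genes was how a large genomic span goes together with the tumor model and with NAM.

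Very long genes are long because of their introns. RNA polymerase needs hours to cross such a gene, and the introns are removed while or after it does so. This leaves a messenger RNA far shorter than the gene. Many of these genes are known from the nervous system, where they encode adhesion molecules, ion channels and receptors, while others encode transcription regulators, phosphodiesterases or proteins of vesicle traffic that most tissues use. A number of them lie in common fragile sites, chromosome regions that break readily when DNA replication is slowed.

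In the deposited coordinates (mm10), the 207 genes spanned 501803 to 2390140 bases with a median of 711909, against a median of 13474 bases for the other named genes, and 47 of them spanned 1 Mb or more. All 207 could be matched by symbol to GENCODE, which lists 205 as protein-coding, and 11 lie on chromosome X. The longest transcript had a median of 5657 bases and 16 exons, compared with 2651 bases and 5 exons for the other named genes. In the 193 genes to which GENCODE also gives 500 kb or more, introns made up a median of 99.2% of the span. Thus these genes also have long messages, and span and transcript length went together across 24718 named genes (Spearman's rho of 0.559, a description across genes, which are not independent replicates). GENCODE itself gave a span under 500 kb to 14 of the 207 genes, including Nfia (346 kb) and Rarb (388 kb). For 11 of the 14, GENCODE lists less than 100 kb, among them Pik3r2 (9 kb), Il6ra (49 kb), Wdr48 (32 kb) and the predicted genes Gm3636 (7 kb) and Gm5796 (17 kb). These 11 are long only in the deposited table. Leaving out the 14 genes was an alternative chosen after seeing the data. With NAM in AT3 tumors, 34 of 105 long genes were then called higher (12.2% of all genes tested) and 2 lower (10.9%). In M/D tumors 0 of 146 were called higher (3.03%) and 1 lower (3.19%). Between untreated models 82 of 134 were higher in M/D tumors (30.2%) and 11 in AT3 tumors (26.5%). Between NAM-treated models these counts were 52 and 8 of 142 (15.3% and 10.1%). Of 148 genes, 14 had a higher effect of NAM in AT3 than in M/D tumors (7.48%) and 1 a lower one (7.59%). The counts below include the 14.

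Promoters of the long genes were rich in CG dinucleotides, the positions at which mammalian DNA is methylated. RefSeq (GRCm38.p6) held 253 start sites for 161 of the symbols, and the 300 bases around a start contained a median of 13 CG, against 7 around the starts of all other genes. At least 1 CG was found in 98.8% of these windows and in 94.6% of the windows of all genes, and 59 symbols had more than 1 start. The long genes called higher with NAM in AT3 tumors (60 starts of 31 symbols) had a median of 8 CG. Of their windows 43.3% held 10 or more CG, against 59.3% for all long genes and 43.3% for all other genes. The highest window per gene had a median of 21 CG in them, 19 in all long genes and 8 in all other genes. The 150 bases before the start are shown for 3 genes of the NAM comparison in AT3 tumors, of which Rora and Diaph2 were called higher and Immp2l lower. Each of these starts coincides with the start of the gene in the deposited table. Sequences are given 5′ to 3′ on the plus strand of GRCm38.p6, with each CG in capitals.
Rora, chr9:68653636-68653785: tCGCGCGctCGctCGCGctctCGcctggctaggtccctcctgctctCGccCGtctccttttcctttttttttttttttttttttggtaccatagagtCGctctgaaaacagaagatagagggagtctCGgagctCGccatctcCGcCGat
Diaph2, chrX:129749592-129749741: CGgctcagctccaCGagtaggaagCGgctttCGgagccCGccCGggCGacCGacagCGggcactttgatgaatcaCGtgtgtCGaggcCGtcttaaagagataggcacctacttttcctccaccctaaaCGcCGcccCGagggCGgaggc
Immp2l, chr12:41023940-41024089: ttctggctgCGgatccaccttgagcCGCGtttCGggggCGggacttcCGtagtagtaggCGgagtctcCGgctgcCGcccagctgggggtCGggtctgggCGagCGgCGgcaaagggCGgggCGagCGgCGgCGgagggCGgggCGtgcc
The stretch before Rora holds 14 CG, the one before Diaph2 16 and the one before Immp2l 20. Zbtb20, also called higher with NAM in AT3 tumors, has 3 CG in the 300 bases around its start and is not shown.

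Depth, recovered as whole reads from the deposited normalized counts, ranged from 40936868 to 84178009 reads per tumor. M/D NAM tumor 1 stood apart from the other tumors. Its 10 epithelial markers summed to 7281 normalized counts on a scale common to all tumors, against 229339 to 911639 in the other M/D tumors and 82465 to 120738 in AT3 tumors. The B cell marker Cd79a was at 77923, against 15.2 to 730 in untreated M/D tumors and 16.6 to 55.4 in AT3 tumors. It was also the only tumor of experiment 2, since the labels place the other 7 M/D tumors in experiment 1 and every AT3 tumor in experiment 3. Hence the results that rest on it are given with and without it, and model and experiment cannot be told apart. In whole tumors, fewer cells of a type and less RNA per cell cannot be told apart either, and p-values measure the spread between these tumors.

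The long genes took a small share of the reads, and a smaller one in AT3 than in M/D tumors. In untreated M/D tumors 1 to 4 the share was 0.221%, 0.237%, 0.219% and 0.171%, and in NAM-treated ones 0.167%, 0.161%, 0.247% and 0.308%. In AT3 tumors it was 0.0681%, 0.105% and 0.0692% when untreated and 0.0980%, 0.159% and 0.170% with NAM. All AT3 values thus lay below those of untreated M/D tumors, whereas AT3 NAM tumor 1 lay among the untreated AT3 tumors. In AT3 tumors, 27 of the 207 genes were at 0 in all 6 libraries, and 6 were at 0 in all 8 M/D libraries. Cntnap5c, Dcc, Gm20754, Lrrtm4 and Sgcz, which include the netrin receptor (Dcc) and a synaptic adhesion protein (Lrrtm4), were at 0 in all 14. With the requirement of a mean of 10 normalized counts in at least 1 group, 158 of the 207 were tested for NAM in M/D tumors and 114 in AT3 tumors. Both tests covered 111 genes, 47 were tested in M/D tumors only, 46 in neither, and Il1rapl2, Opcml and Cadm2 in AT3 tumors only.

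**Figure D1:**
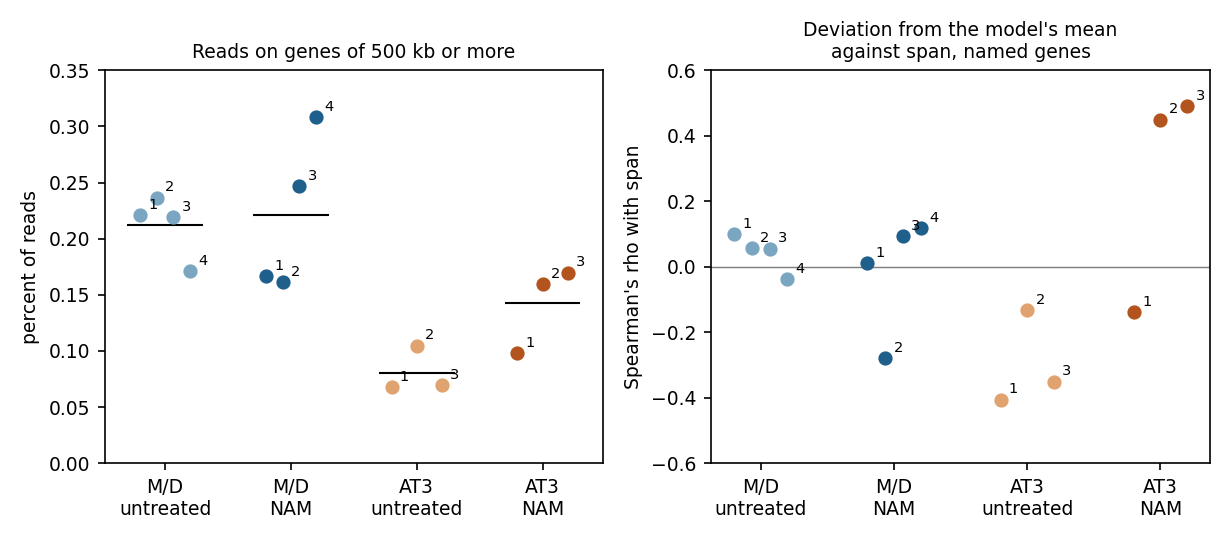
Long genes in each of the 14 tumors. The left panel shows the percentage of reads on the 207 genes and the right panel Spearman's rho, over named genes, between the deviation from the mean of the tumor's model and genomic span, with a numbered point per tumor, a colour per group and a black bar for the group mean on the left. The AT3 tumors lie below the untreated M/D tumors on the left, and AT3 NAM tumors 2 (0.449) and 3 (0.491) stand above all other tumors on the right.

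In AT3 tumors, most of the long genes that could be tested had more RNA with NAM. Of 114 genes tested, 36 were called higher (12.2% of all genes tested were) and 3 lower (10.9% of all genes), called here meaning an unadjusted limma p of 0.05 or less together with a change of 1.5-fold or more. The median log2 change was 0.68 over the long genes, against -0.05 over all genes tested, and 90 of the 114 changes were above 0, compared with 47.5% of all genes. The untreated and the NAM-treated tumors did not overlap in 29 long genes that were higher and 3 that were lower, against 11.7% and 11% of all genes. None of the 114 had an adjusted p of at most 0.05 (limma, Benjamini-Hochberg over all 19281 genes tested, of which 0.00519% did), although 41 had an unadjusted p of at most 0.05. The adjusted p of the genes called higher ranged from 0.166 to 0.205. DESeq2 on the recovered reads gave 22 long genes with an adjusted p of at most 0.05 (10.6% of all genes), and edgeR gave 0.

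Tenm4, a teneurin that connects neurons, showed one of the largest changes. Its normalized counts were 44.9, 112 and 69.2 in untreated AT3 tumors and 157, 354 and 368 with NAM, a log2 change of 1.94 ± 0.45 (SE, n = 3 against 3). Etl4 (enhancer trap locus 4, chr2:19909778-20810535) went from 60.9, 142 and 39.9 to 126, 412 and 408 (1.96 ± 0.58). In Tenm4 every treated tumor exceeded every untreated tumor, whereas in Etl4 NAM tumor 1 (126) lay below untreated tumor 2 (142). Aff2, a gene of the AF4 family of transcription elongation proteins, had the largest log2 change among the genes called higher (2.14 ± 0.77), but on few reads, with 2.90, 6.09 and 1.63 normalized counts against 8.51, 23.5 and 25.6. 

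**Figure D2:**
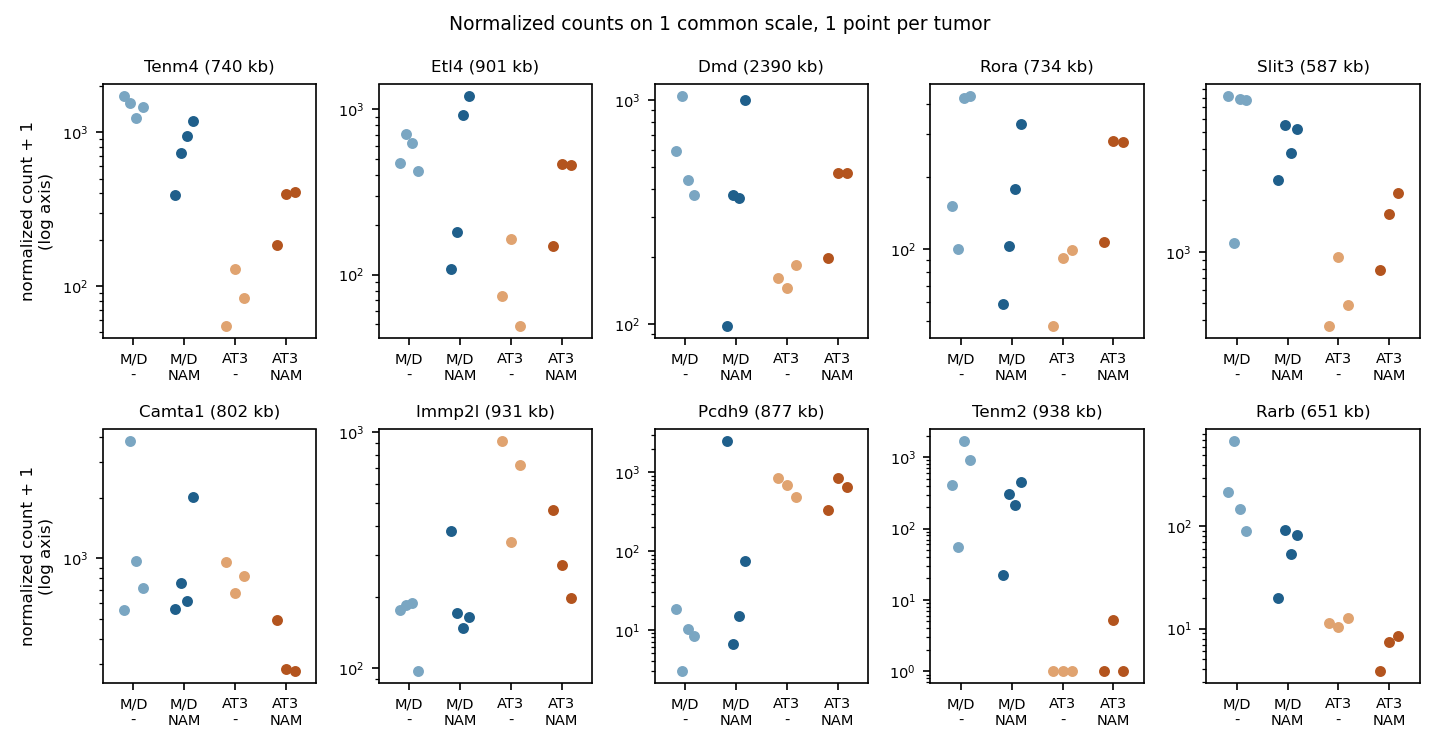
Normalized counts on the common scale plus 1 (log axis) of 10 long genes, with 1 point per tumor and 1 colour per group (M/D or AT3, untreated marked by a dash). NAM-treated AT3 tumors 2 and 3 lie above all untreated AT3 tumors for Tenm4, Etl4, Dmd, Rora and Slit3 and below them for Camta1 and Immp2l, and Pcdh9 is high in 1 M/D tumor, NAM tumor 1.

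Transcription regulators held 5 genes called higher and 1 lower of 12 tested, with a median log2 change of 0.95, where 12.2% and 10.9% of all genes were called. With the trend with transcript length removed (described below), 1 was called higher (7.98% of all genes) and 1 lower (8.22%). Zbtb20, a zinc finger repressor, had 46.4, 40.6 and 13.8 normalized counts in untreated tumors and 47.4, 175 and 120 with NAM (1.71 ± 0.61). Rora, a nuclear receptor that takes part in the circadian clock and whose promoter is shown above (chr9:68653786-69388246), had 39.1, 79.2 and 82.2 against 91.1, 250 and 249 (1.48 ± 0.48). In both genes the treated tumors exceeded the untreated ones, with NAM tumor 1 only just above. Auts2, a chromatin-associated regulator of neuronal development, had 79.7, 370 and 173 against 265, 609 and 691 (1.48 ± 0.56), and its groups overlapped. The developmental factors Nfia (149, 249 and 142 against 281, 581 and 623, or 1.42 ± 0.38) and Sox6 (0.91 ± 0.40) were also called higher. The 1 regulator called lower was Camta1, a calmodulin-binding transcription activator (chr4:151059523-151861770), which fell from 806, 588 and 689 to 425, 251 and 247 (-1.21 ± 0.29), without overlap.

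Among genes of axon guidance, 3 of 5 tested were called higher (12.2% of all genes) and 0 lower (10.9%). With the length trend removed, 2 were called higher (7.98% of all genes). The secreted guidance ligand Slit3 had 307, 810 and 409 normalized counts in untreated tumors and 672, 1480 and 1971 with NAM (1.42 ± 0.46). The membrane-bound semaphorin Sema6d had 63.8, 84.3 and 60.2 against 111, 267 and 344 (1.64 ± 0.44), and Nav3, a microtubule-associated navigator protein, changed by 1.11 ± 0.41. Sema6d thus separated the groups while Slit3 did not, since its NAM tumor 1 fell below untreated tumor 2.

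Of 8 cadherins, catenins and polarity proteins tested, 5 were called higher (12.2% of all genes) and 0 lower (10.9%). The log2 changes of the 5 lay between 0.96 and 1.11. With the length trend removed, 1 was called higher (7.98% of all genes) and 1 lower (8.22%). The 5 were the polarity scaffolds Magi1 (0.96 ± 0.39) and Pard3 (0.97 ± 0.32), the anchorless cadherin Cdh13 (1.04 ± 0.29), delta-catenin Ctnnd2 (1.05 ± 0.46) and protocadherin Pcdh11x (1.11 ± 0.36). Cdh13 had 212, 230 and 195 normalized counts in untreated and 311, 472 and 566 in treated tumors, and Pard3 had 712, 1024 and 738 against 981, 1974 and 2092. Of 10 synaptic and neural adhesion genes tested, 2 were called higher (12.2% of all genes), namely Tenm4 and Cadm2 (1.5 ± 0.61). With the length trend removed, 1 was called higher (7.98% of all genes). On that list, 23 of the 33 genes were not tested in AT3 tumors because their counts were too low.

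Both genes of the dystrophin complex that could be tested, of 4 on the list, were called higher, against 12.2% of all genes. Dmd, which encodes dystrophin and is the longest gene of all at 2390 kb (chrX:82814910-85205050), had 133, 126 and 152 normalized counts in untreated AT3 tumors and 168, 419 and 422 with NAM (1.17 ± 0.38). Large, a glycosyltransferase that modifies dystroglycan, changed by 0.84 ± 0.29. RefSeq lists 2 starts of Dmd that are 2099 kb apart, and a count per gene does not tell transcripts from these starts apart. For vesicle traffic and sorting, 3 of 5 tested genes were called higher (12.2% of all genes). They were Exoc4 of the exocyst complex (1.18 ± 0.37) and the related BEACH domain proteins Lrba (1.18 ± 0.40) and Nbea (0.96 ± 0.39). Of the receptor-type phosphatases, Ptprg (0.76 ± 0.30) and Ptprk (0.76 ± 0.25) were called, of 5 tested (12.2% of all genes). With the length trend removed, 0 genes of the dystrophin complex, 1 of vesicle traffic and 0 of the phosphatases were called higher (7.98% of all genes).

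The remaining lists gave 1 gene each or none, where 12.2% of all genes were called higher. Pde4b, a phosphodiesterase that breaks down cAMP, was called of 5 cyclic nucleotide and lipid signalling genes (1.24 ± 0.31). Celf2, an RNA-binding splicing regulator, was called of 2 tested (1.21 ± 0.38), the calcium channel subunit Cacna1c of 6 channels and receptors (1.08 ± 0.47), and none of 4 genes of heparan sulfate, glypicans and matrix. On no list were 44 tested genes, of which 11 were called higher (12.2% of all genes) and 1 lower (10.9%). The 11 included the engulfment protein Elmo1 (1.00 ± 0.24), the secretion factor Cadps2 (1.15 ± 0.29), the formin Diaph2 (1.12 ± 0.41), the ankyrin Ank2 (1.35 ± 0.52), the exchange factor Kalrn (1.34 ± 0.50) and the interleukin-6 receptor Il6ra (1.40 ± 0.45). Diaph2, whose promoter is shown above, had 65.2, 52.8 and 61.0 normalized counts in untreated tumors and 72.9, 167 and 181 with NAM.

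Apart from Camta1, the genes called lower in NAM-treated AT3 tumors were Immp2l and Gm5796. Immp2l encodes a subunit of the peptidase that processes proteins of the inner mitochondrial membrane. Its normalized counts were 764, 295 and 604 in untreated tumors and 400, 242 and 175 with NAM (-1.0 ± 0.42), so that the groups overlapped. The predicted gene Gm5796, which GENCODE does not list as long, had 17.4, 3.05 and 10.6 against 0, 1.88 and 0. With 2 reads in all NAM-treated AT3 tumors, this is a ratio of 16.5 with a counting interval (exact Poisson, 95%) of 4.56 to 136.

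The calls depended on which tumors were included. NAM tumors 2 and 3 carried much of the difference: 13 long genes were called higher without NAM tumor 2 (5.06% of all genes) and 10 without NAM tumor 3 (4.68%), whereas 53 were called without NAM tumor 1 (17.9%). Without untreated tumors 1, 2 and 3 in turn, 18, 40 and 22 were called (6.47%, 18.2% and 7.34% of all genes). The adjusted p (limma) was at most 0.05 for 31 long genes without NAM tumor 1 (12.9% of all genes) and for 17 without untreated tumor 2 (13.3%), and for 0 in the other 4 fits. The median log2 change stayed between 0.49 and 0.94 in these 6 fits. Elmo1, Etl4, Sema6d, Celf2, Nfia, Pde4b, Exoc4, Cadps2, Tenm4 and Cdh13 were called higher in all 6. Per tumor, 30, 46 and 33 of the 114 genes lay above the mean of the AT3 tumors in untreated tumors 1 to 3, and 41, 86 and 92 in NAM tumors 1 to 3.

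Other features of the AT3 tumors moved with NAM as well. All 4 endothelial markers were called higher, and their sum, on the common scale, was 2737 to 3843 in untreated tumors and 4449 to 7251 with NAM. The 4 fibroblast markers found summed to 65763 to 188806 and 96792 to 246288, with 0 called. Of the other markers, 2 of 4 myeloid and 1 of 6 Schwann cell markers were called higher. Of 10 epithelial markers 2 were called higher and 2 lower, and 1 of 5 adipocyte markers was called lower. In contrast, 0 of 4 T cell, 8 skeletal muscle and 3 neuron markers tested were called. Of all genes, 12.2% were called higher and 10.9% lower. The part of these cell types in the change of the long genes was not tested.

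Long transcripts as a whole also gained in NAM-treated AT3 tumors, most clearly in NAM tumors 2 and 3. Per tumor, the deviation from the AT3 mean correlated with transcript length by a rho of -0.552, 0.019 and -0.528 in untreated tumors. With NAM the values were -0.209, 0.575 and 0.605, so that NAM tumor 1 lay below untreated tumor 2. Across 15076 named genes, the log2 change correlated with transcript length (rho of 0.601) and, over 15193 genes, with span (rho of 0.486). When the trend of each tumor with transcript length was removed, 11 long genes were called higher (7.98% of all genes) and 5 lower (8.22%), and the median fell from 0.68 to 0.17. Of the 36 genes called higher before, 11 were still called and 35 were above 0. The 11 were Tenm4, Etl4, Aff2, Sema6d, Slit3, Nfia, Pde4b, Slc9a9, Cdh13, Exoc4 and Fgf13. Ptprg ended at -0.00, and Camta1 was still called lower, at -1.95. The cause of this trend was not tested.

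In M/D tumors the long genes showed no common direction of change with NAM, as the treated tumors differed from each other. Per tumor, 81, 81, 92 and 72 of the 158 genes tested lay above the mean of the M/D tumors in untreated tumors 1 to 4. In NAM tumors 1 to 4 these counts were 50, 44, 104 and 115, with median log2 deviations of -0.79, -0.45, 0.31 and 0.57. Of 158 tested, 0 were called higher (3.03% of all genes) and 2 lower (3.19%), with a median log2 change of -0.03 against 0.01 over all genes. Changes above 0 were seen in 75 of the 158 (51.1% of all genes), and 3 genes had an unadjusted p of at most 0.05. In 0 genes did the groups separate upwards and in 3 downwards (2.43% and 2.00% of all genes). No long gene had an adjusted p of at most 0.05 by limma (0.00461% of all genes did), edgeR or DESeq2, while edgeR called 6 higher and 4 lower (4.57% and 2.97% of all genes) and DESeq2 9 and 3 (5.93% and 3.71%). With the trend with transcript length removed, 1 was called higher (2.44% of all genes) and 2 lower (3.17%). The median SE of a log2 change was 0.82 here and 0.44 in AT3 tumors.

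The 2 genes called lower were Rarb, the retinoic acid receptor beta, and Tenm4. Rarb had 244, 755, 166 and 99.0 normalized counts in untreated M/D tumors and 21.2, 99.9, 59.8 and 93.9 with NAM (-1.98 ± 0.72, adjusted p of 0.734). Tenm4 had 1938, 1709, 1406 and 1626 against 435, 801, 1071 and 1380 (-0.97 ± 0.35). In Tenm4 all treated tumors lay below all untreated ones, whereas in Rarb NAM tumor 2 slightly exceeded untreated tumor 4. Tenm4 was not called without untreated tumor 1, and Rarb was not called without untreated tumor 1, untreated tumor 2 or NAM tumor 1.

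Without M/D NAM tumor 1, 159 long genes were tested. Then 4 were called higher (2.85% of all genes), namely the neuronal splicing factor Rbfox1, the growth factor homolog Fgf12, 1700112E06Rik and Gm3636, and 2 lower (2.33%), namely Tenm4 (-0.65) and Mast4 (-0.66), a microtubule-associated kinase. The median was then 0.12. Mast4 had 16140, 8695, 14976 and 11343 normalized counts in untreated tumors and 1521, 8829, 9145 and 6016 with NAM, of which the lowest is M/D NAM tumor 1. The 36 genes called higher in AT3 tumors included 35 that were tested in the main M/D fit, which includes M/D NAM tumor 1. In that fit, 12 of the 35 were above 0, their median was -0.28, and 0 were called higher.

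**Figure D3:**
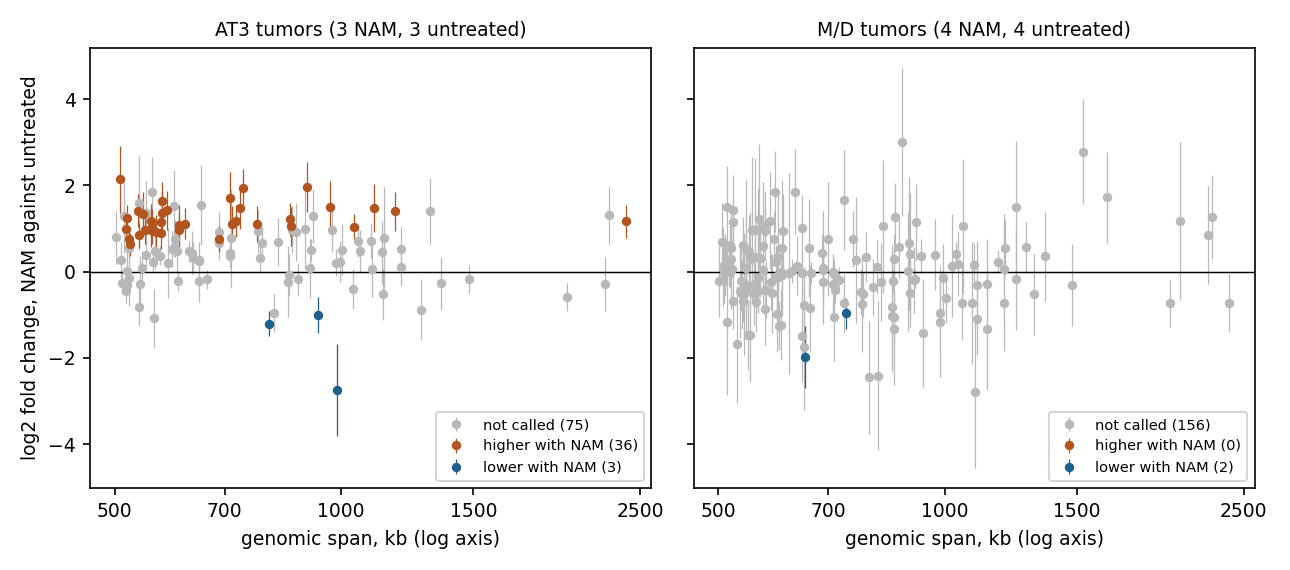
Log2 change of each long gene with NAM (y axis) against its span (kb, log axis), for the 114 genes tested in AT3 tumors (left) and the 158 tested in M/D tumors (right). Points are genes, bars are the SE, and coloured points are genes called higher or lower. In AT3 tumors 90 of 114 points lie above 0 (rho with span of -0.11 among these genes), while in M/D tumors the points lie on both sides of 0.

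The effect of NAM was then compared between the models by an interaction term, on values of all 14 tumors set to a common scale. Of 160 long genes tested, 15 had a higher effect in AT3 than in M/D tumors (7.48% of all genes) and 1 a lower one (7.59%), with a median difference of 0.54 against -0.08 over all genes. The adjusted p was above 0.05 for all 22687 genes tested by limma, and 16 long genes had an unadjusted p of at most 0.05. DESeq2 gave 3 long genes with an adjusted p of at most 0.05, and 824 of all genes. The largest differences among well counted genes were those of Tenm4 (2.87 ± 0.59, adjusted p of 0.169), Auts2 (2.54 ± 1.14), Etl4 (2.42), Pard3 (2.39 ± 1.02), Rora (2.17) and Mast4 (1.98). Kalrn (1.61 ± 0.69) and Diaph2 (1.51 ± 0.49) followed. Immp2l was the 1 gene with a lower effect in AT3 tumors (-1.40 ± 0.64), as it was called lower with NAM there, whereas its M/D values were 196, 203, 213 and 107 without and 420, 188, 166 and 190 with NAM, the 420 being that of NAM tumor 1.

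Tenm4 was the gene called lower with NAM in M/D tumors and higher in AT3 tumors. Without M/D NAM tumor 1, its difference was 2.55, and 13 long genes had a higher and 2 a lower effect in AT3 tumors (9.08% and 7.78% of all genes), with a median of 0.34. Tenm4, Auts2 (1.67), Pard3 (1.45), Mast4 (1.39) and Diaph2 (1.60) were still called, while Etl4 (1.81), Rora (1.76), Kalrn (1.33) and Immp2l (-1.10) were not. With the trend with transcript length removed, 4 genes were called higher (5.03% of all genes) and 3 lower (5.83%), and the median was -0.03.

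The models differed far more from each other than either did with NAM. Between untreated tumors, on the common scale, 145 long genes were tested, of which 87 were higher in M/D tumors (30.2% of all genes) and 12 higher in AT3 tumors (26.5%). The median log2 difference (M/D minus AT3) was 1.58, against 0.04 over all genes, and 119 genes were above 0 (51% of all genes). By limma with Benjamini-Hochberg adjustment over all genes, 88 had an adjusted p of at most 0.05 (51.5% of all genes), 77 of them higher in M/D tumors and 11 in AT3 tumors. In 78 genes every M/D tumor exceeded every AT3 tumor (28.2% of all genes) and in 10 the reverse was seen (25.9%). With the trend with transcript length removed, 46 were higher in M/D tumors (22.1% of all genes) and 25 in AT3 tumors (36.0%), with a median of 0.59 against -0.34 over all genes. Except where stated, the genes named in the following paragraphs had an adjusted p of at most 0.05 in untreated tumors.

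Synaptic and neural adhesion genes showed the widest range, with 9 of 18 tested called higher in M/D tumors and 1 in AT3 tumors, against 30.2% and 26.5% of all genes. After the trend with transcript length was removed, 7 were called higher in M/D tumors (22.1% of all genes) and 5 in AT3 tumors (36.0%). Tenm2, another teneurin, had 410, 54.0, 1686 and 902 normalized counts on the common scale in untreated M/D tumors and 0 in all untreated AT3 tumors. Set against the floor of 3 reads per library, it was at least 197-fold higher in M/D tumors. The cell adhesion protein Kirrel3 had 283, 41.3, 196 and 207 against 5.19, 0 and 0, which on 3 reads in AT3 tumors is a ratio of 105 with a counting interval of 35.9 to 509. Csmd1, a large complement-control protein, had 67.4, 381, 48.9 and 118 against 0, 0 and 13.6 (log2 difference of 5.51 ± 1.10). All M/D tumors thus lay above all AT3 tumors in these 3 genes, in spite of a wide spread among M/D tumors. Astn2 (4.53), Tenm4 (4.14), Lrrc4c (4.12) and Dscam (2.08), a homophilic adhesion molecule, were also higher in M/D tumors, and the postsynaptic adhesion protein Nlgn1 at least 7.96-fold, as it was at 0 in untreated AT3 tumors. Il1rapl2 was at least 4.90-fold higher in AT3 tumors.

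For axon guidance, Nav2 had 850, 591, 536 and 317 normalized counts against 34.6, 57.0 and 8.75 (log2 difference of 4.32 ± 0.61), and Slit3 (3.14) and Sema6d (2.85) were higher in M/D tumors too. Robo2, a receptor of Slit proteins, had 687, 17.7, 966 and 524 against 17.3, 46.6 and 27.2, and its log2 difference of 3.29 ± 1.25 had an adjusted p of 0.0528, M/D untreated tumor 2 being as low as AT3 tumors. A ligand and a receptor of this pathway thus both had higher means in M/D tumors.

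Cadherins, catenins and polarity proteins went both ways. Of 8 tested, 4 were called higher in M/D tumors and 3 in AT3 tumors, against 30.2% and 26.5% of all genes. With the trend with transcript length removed, 3 were called higher in M/D tumors (22.1% of all genes) and 3 in AT3 tumors (36.0%). Magi1 (2.64), Cdh13 (2.43), Pard3 (1.70) and Ctnnd2 (1.35) were higher in M/D tumors. Protocadherin Pcdh9 was the gene with the largest difference towards AT3 tumors, with 17.5, 1.96, 9.25 and 7.20 normalized counts in untreated M/D tumors and 857, 696 and 488 in untreated AT3 tumors (-6.33 ± 0.63). Pcdh11x, a protocadherin of the X chromosome, had 16.6, 57.0, 4.63 and 5.76 against 96.9, 171 and 97.2 (-3.07 ± 0.82), and Magi2, a scaffold protein of cell junctions, 60.9, 24.6, 71.4 and 43.2 against 334, 176 and 190 (-2.24 ± 0.47). Both protocadherins were high in 1 M/D tumor of the NAM-treated group, NAM tumor 1, with 2508 for Pcdh9 and 1791 for Pcdh11x, while the other 3 had 5.54 to 73.6 and 0 to 22.8.

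All 6 cyclic nucleotide and lipid signalling genes tested were called higher in M/D tumors (30.2% of all genes), or 4 with the trend with transcript length removed (22.1%). The adjusted threshold was passed by 5. They were the cGMP-dependent kinase Prkg1 (3.94), the cAMP phosphodiesterases Pde4b (2.05) and Pde4d (1.90), the lipid phosphatase Inpp4b (1.69) and Rgs6, a regulator of G protein signalling that was at least 3.55-fold higher. Among transcription regulators, 8 of 13 were called higher in M/D tumors and 0 in AT3 tumors, against 30.2% and 26.5% of all genes. With the length trend removed, 3 were called higher in M/D tumors (22.1% of all genes) and 1 in AT3 tumors (36.0%). The 8 were Rarb (4.21), Zbtb20 (3.39), Lpp (3.29), Hdac9 (1.69), Esrrg (1.70), Nfia (1.62), Rora (1.60) and Mecom (1.36). Rarb had 217, 683, 146 and 88.6 normalized counts against 10.4, 9.31 and 11.7, and Lpp had 666, 658, 582 and 387 against 69.2, 72.2 and 36.0, both without overlap.

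For vesicle traffic and sorting, 6 of 8 were called higher in M/D tumors and 0 in AT3 tumors, against 30.2% and 26.5% of all genes. With the length trend removed, 2 were called higher in M/D tumors (22.1% of all genes) and 1 in AT3 tumors (36.0%). Vps13b (2.22), Lrba (1.41), Rabgap1l (1.17) and Exoc4 (0.74) were among the 6, and the presynaptic protein Erc2, with 2 reads in untreated AT3 tumors, had a ratio of 46.2 (12.8 to 381). The sorting receptor Sorcs3 was at least 6.09-fold higher. Of the channels and receptors, 5 of 9 tested were called higher in M/D tumors and 0 in AT3 tumors, against 30.2% and 26.5% of all genes. With the length trend removed, these counts were 3 and 2 (22.1% and 36.0% of all genes). The cation channel Trpm3 had 401, 635, 308 and 115 against 6.92, 4.66 and 30.1 (4.79 ± 0.74), Cacna1c differed by 1.56, the ryanodine receptor Ryr3 was at least 7.30-fold and the GABA receptor subunit Gabrg3 at least 3.55-fold higher. The RNA-binding proteins Rbms3 (3.79) and Celf2 (2.27), the dystrophin complex genes Dmd (1.80) and Large (1.58), the phosphatases Ptprd (2.65) and Ptprg (1.32), and the laminin chain Lama2 (2.25) were higher in M/D tumors as well. Galntl6, of a family of enzymes that start O-glycosylation, was higher in AT3 tumors, with 216, 71.0 and 303 normalized counts against 0, 0.982, 1.32 and 90.8 in M/D tumors (-5.21 ± 1.45), the 90.8 being that of untreated tumor 4.

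Of 58 tested genes on no list, 34 were called higher in M/D tumors and 5 in AT3 tumors, against 30.2% and 26.5% of all genes. Differences of 2 or more towards M/D tumors were those of Slc9a9, an endosomal sodium-proton exchanger (3.12), the flippase subunit Atp8a2 (3.10), the pyrimidine-degrading enzyme Dpyd (3.05), Kalrn (2.90), Il6ra (2.87), Ank2 (2.81), Etl4 (2.70), Enox1 (2.36), Diaph2 (2.13), Mast4 (2.06) and Thsd4 (2.01). Lower but still past the adjusted threshold were Arhgap6 (1.98), 1700112E06Rik (1.84), Cpq (1.72), Cadps2 (1.69), Mctp1 (1.54), Arhgap15 (1.49), March1 (1.31), Elmo1 (0.94), Wdr48 (0.65), Atrnl1 (0.58), Spint1 (0.57) and Smyd3 (0.56), of which the last 3 were under the fold change of 1.5. Genes with 2 reads in untreated AT3 tumors were Hpse2, a heparanase homolog (ratio of 82.0, interval 22.7 to 677), Lhfpl3 (57.3, 15.9 to 473), the receptor kinase Alk (40.6, 11.2 to 335), Pkhd1 (40.1, 11.1 to 331) and Fgf12 (9.87, 2.73 to 81.5). Trhde (at least 5.70-fold), A830018L16Rik (at least 4.77-fold) and Nkain3 (at least 2.74-fold) were at 0 in untreated AT3 tumors. Towards AT3 tumors, Stpg2 had a ratio of 21.4 (7.31 to 104) on 3 reads in M/D tumors, and Gm3636 (-1.22), the GDP-mannose dehydratase Gmds (-1.20) and the mitochondrial synthetase Fars2 (-0.89) were higher there.

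Marker genes of several cell types also differed between untreated tumors of the models. On the common scale, the 6 Schwann cell and nerve markers summed to 3192 to 9131 in M/D and 285 to 351 in AT3 tumors, with 4 of 6 called, and the 5 neuron markers to 196 to 10949 and 260 to 317, with 2 of 3 tested called. The neuronal gene Snap25 was at or under 1.96 in all untreated tumors, and Tubb3 made up most of the neuron sum. All 4 endothelial and all 5 adipocyte markers and 7 of 10 epithelial markers were higher in M/D tumors, as were 3 of 4 T cell, 3 of 4 myeloid and 2 of 4 fibroblast markers, while 0 of 8 skeletal muscle markers were called. Of all genes, 30.2% were called higher in M/D tumors and 26.5% in AT3 tumors. The part of these cell types in the difference of the long genes was not tested.

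Between NAM-treated tumors, 56 of 153 long genes were called higher in M/D tumors (15.3% of all genes) and 8 in AT3 tumors (10.1%), with a median log2 difference of 1.28 against 0.10 over all genes and 107 above 0 (54.1% of all genes). These tumors are not those of the untreated comparison. Among 138 genes tested in both, 50 were higher in M/D tumors in both, that is 57.5% of those called in untreated and 89.3% of those called in treated tumors (12.2% of the 20160 genes tested in both), and 5 were higher in AT3 tumors in both (8.6% of all genes), while 0 were called in opposite directions. The 5 were Macrod2, Magi2, Galntl6, Fars2 and Gmds. The adjusted p was at most 0.05 for 17 long genes (7.88% of all genes). This count was 3, 2 and 2 without AT3 NAM tumors 1, 2 and 3 in turn, and 42, 20, 4 and 8 without M/D NAM tumors 1 to 4. On the common scale, the NAM-treated M/D tumors had 21.3, 309, 216 and 447 normalized counts of Tenm2 and the AT3 tumors 0, 4.22 and 0 (6.54 ± 1.15), and Robo2 had 272, 223, 513 and 466 against 17.0, 33.8 and 35.1 (3.62 ± 0.47). The other genes higher in M/D tumors were Kirrel3 (6.11), Csmd1 (5.30), Alk (4.90), Rarb (3.11), Rbms3 (2.98), 1700112E06Rik (2.68), Ank2 (2.45), Cpq (2.15), Slc9a9 (1.81) and Il6ra (1.74), with Ryr3 at least 21.2-fold, Trhde at least 6.00-fold, the T cell receptor segment Trav9n-2 at least 3.31-fold and A830018L16Rik at least 3.14-fold higher. Galntl6 was higher in AT3 tumors (-5.95 ± 0.72).

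Without M/D NAM tumor 1, 61 long genes were higher in NAM-treated M/D tumors (20.2% of all genes) and 12 in AT3 tumors (13.2%), 42 had an adjusted p of at most 0.05, and the median was 1.20. With the trend with transcript length removed, all tumors included, 41 and 15 were called (11.1% and 21.2% of all genes). Pcdh9 and Pcdh11x, which were high in that tumor alone among M/D tumors, were called higher in AT3 tumors only when it was left out. For Tenm4 the difference was 1.27 ± 0.47 in treated against 4.14 ± 0.31 in untreated tumors, with 391, 728, 947 and 1180 normalized counts in M/D and 183, 397 and 411 in AT3 tumors.

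Sorting all named genes by span showed where the long genes stand. In AT3 tumors, the median log2 change with NAM was -0.37 for genes under 10 kb, 0.06 at 10 to 50 kb, 0.44 at 50 to 100 kb, 0.63 at 100 to 250 kb, 0.65 at 250 to 500 kb and 0.72 at 500 kb or more, a class that here includes the genes left out by name. The shares called higher in these classes were 2.51%, 12.2%, 29.9%, 37.5%, 37.2% and 33.1%. Thus the change rose up to about 100 kb and differed little beyond, and the value of the long genes was close to those of genes of 100 to 500 kb. In M/D tumors the medians lay between -0.11 and 0.00 in all classes. Between untreated models (M/D minus AT3) they were -0.49, 0.16, 0.81, 1.17, 1.36 and 1.58, and between NAM-treated models -0.10, 0.01, 0.22, 0.39, 0.56 and 1.28.

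**Figure D4:**
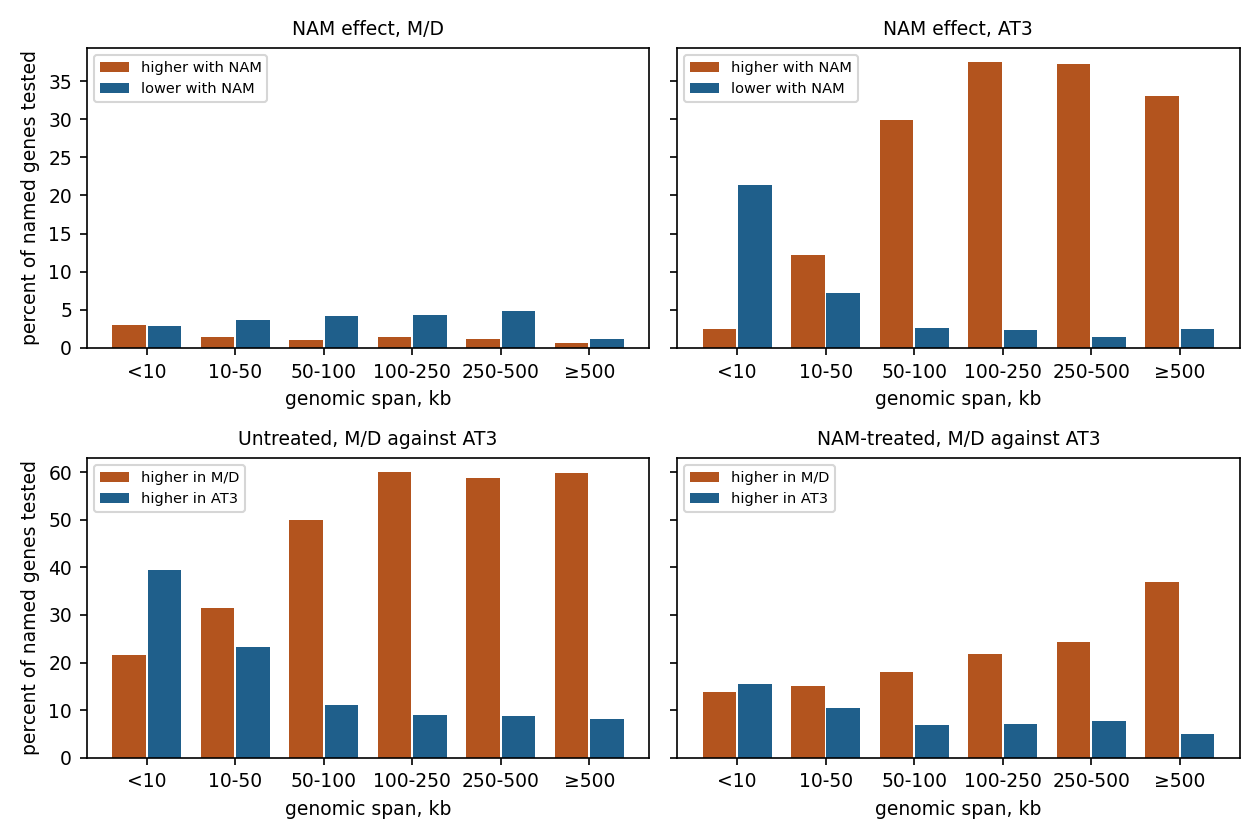
Percentage of named genes tested that were called higher or lower (bars) in 6 classes of genomic span (kb, x axis), for NAM in M/D tumors, NAM in AT3 tumors, and M/D against AT3 between untreated and between NAM-treated tumors. For NAM in AT3 tumors the share called higher goes from 2.51% under 10 kb to 33.1% at 500 kb or more, and in M/D tumors both shares stay low in every class.

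Within classes of transcript length, the increase with span in AT3 tumors was seen for transcripts of 2 kb or more. Among genes with transcripts of 8 kb or more, the median change went from 0.11 in genes under 10 kb to 1.11 in the 43 genes of 500 kb or more, and with transcripts of 4 to 8 kb from 0.05 to 0.67, after 0.87 at 250 to 500 kb. With transcripts of 2 to 4 kb it went from -0.15 to 0.40, the last over 14 genes. With transcripts under 2 kb it lay between -0.59 and -0.40 in the span classes up to 250 kb, and the classes beyond held 7 and 4 genes. Between untreated models, genes with transcripts of 8 kb or more went from 0.17 to 2.08, whereas those under 2 kb went from -0.82 to -0.44 at 100 to 250 kb. After the trend with transcript length was removed, the AT3 medians were -0.06, 0.02, 0.11, 0.19, 0.24 and 0.19 from the shortest to the longest span class.

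**Figure D5:**
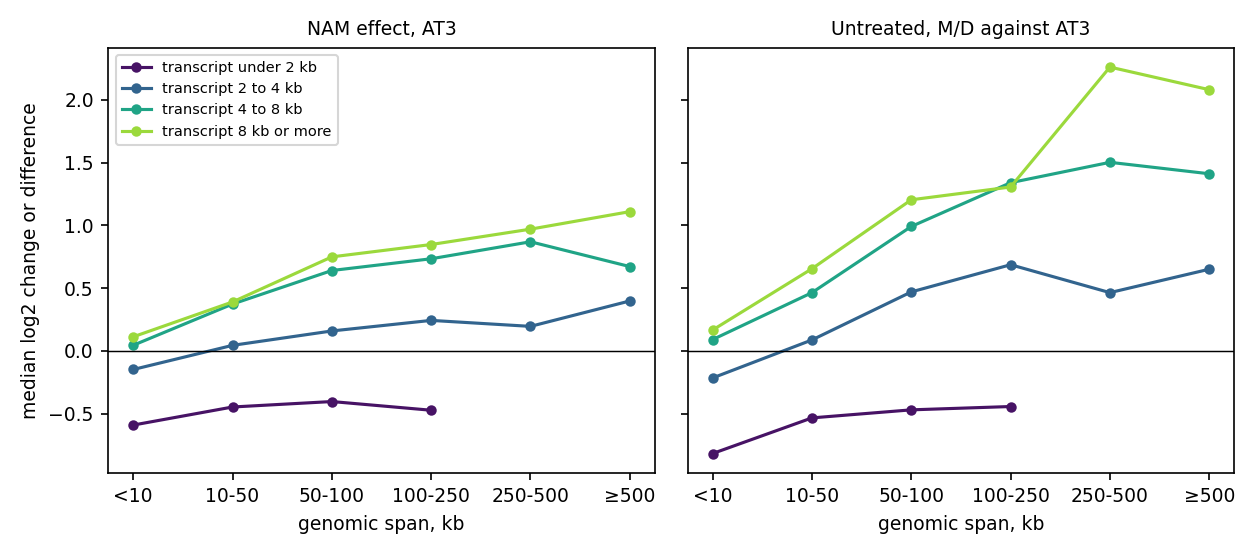
Median log2 change with NAM in AT3 tumors (left) and median log2 difference between untreated M/D and AT3 tumors (right) by span class (kb, x axis), with a line for each class of transcript length, leaving out points of fewer than 10 genes. The lines lie in the order of transcript length nearly throughout, and those under 2 kb stay below 0.

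Within the long genes themselves, the log2 change showed little correlation with span. The correlation of span with the log2 change was -0.04 in M/D tumors (158 genes), -0.11 in AT3 tumors (114 genes), and -0.07 and -0.02 for the models compared untreated and treated (145 and 153 genes). Transcript length did go together with the AT3 change among them (rho of 0.46). Per tumor, over named genes, the correlation of the deviation from the model mean with span was -0.406, -0.132 and -0.351 in untreated AT3 tumors and -0.139, 0.449 and 0.491 with NAM. In untreated M/D tumors it was 0.0988, 0.0561, 0.0551 and -0.0379, and with NAM 0.0103, -0.278, 0.0934 and 0.118. AT3 NAM tumor 1 was thus like the untreated AT3 tumors in this respect, and M/D NAM tumor 2 stood out among M/D tumors. 

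Just over the threshold of 500 kb lie Edil3 (501803 bases), an integrin ligand with an AT3 change of 0.79 ± 0.62 that was not called, and Car10 (503347 bases), which was too low to be tested. Just under it, the ankyrin Ank3 (493728 bases) was called higher with NAM in AT3 tumors (0.84) and higher in untreated M/D than AT3 tumors (2.66), and the transporter Abca13 (492318 bases) was higher in untreated M/D tumors (3.49). Among the 3 genes of greatest span, Dmd was described above. Ptprd (2271 kb) had 5.80, 34.5 and 17.9 normalized counts in untreated AT3 tumors and 27.9, 39.5 and 57.8 with NAM (1.31 ± 0.66, not called). Cntnap2, a neurexin-like protein of 2241 kb, had 23.2, 10.2 and 30.9 against 26.7, 15.1 and 9.91 (-0.28 ± 0.63). Of the 22 genes of 1 Mb or more tested in AT3 tumors, 4 were called higher (18.2%), against 12.2% of all genes and 31.6% of all long genes tested. Their median log2 change was 0.49, against 0.68 over all long genes. With the trend with transcript length removed, it was -0.16 against 0.17.

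The genes with the highest counts were Mast4, Spint1, Pik3r2, Slit3 and Ptprk in M/D tumors and Pik3r2, Spint1, Mast4, Ptprk and Lrba in AT3 tumors. Spint1, an inhibitor of serine proteases, and Pik3r2, a regulatory subunit of PI3 kinase, are short in GENCODE. In AT3 tumors their log2 changes with NAM were 0.25 ± 0.19 and 0.37 ± 0.28, neither called. Lrba had 1000, 2059 and 1219 normalized counts in untreated AT3 tumors and 1694, 4232 and 4076 with NAM, and Ptprk had 1769, 2762 and 2103 against 2893, 4318 and 4013. Both groups of Ptprk separated, while in Lrba NAM tumor 1 was below untreated tumor 2.

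Of the 20 genes of common fragile sites among the long genes, 15 were tested in AT3 tumors. There, 5 were called higher with NAM (Rora, Exoc4, Dmd, Cdh13 and Nbea) and 1 lower (Immp2l), against 12.2% and 10.9% of all genes. The median over the 15 was 0.23. With the trend with transcript length removed, 2 were called higher (7.98% of all genes) and 1 lower (8.22%), and Immp2l was no longer called. In M/D tumors 17 were tested, 0 were called and the median was -0.16. Wwox, an oxidoreductase whose gene lies in one of the best known fragile sites, changed by 0.49 ± 0.25 in AT3 and -0.16 ± 0.22 in M/D tumors. Macrod2, an ADP-ribose hydrolase, had 917, 547 and 1122 normalized counts in untreated AT3 tumors and 733, 497 and 452 with NAM (-0.59 ± 0.32). The ubiquitin ligase Park2 (0.23 ± 0.47), Ccser1 (0.11 ± 0.44), Naaladl2 (0.21 ± 0.31), Pard3b (0.51 ± 0.59) and Dlg2 (-0.27 ± 0.61) were not called in AT3 tumors. Lrp1b, Ctnna3 and Il1rapl1 were too low to be tested there, the highest AT3 value among these 3 being 1.88.

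Between untreated models, 7 of 16 fragile site genes tested were called higher in M/D and 3 in AT3 tumors, against 30.2% and 26.5% of all genes. After the trend with transcript length was removed, 3 were called higher in M/D tumors (22.1% of all genes) and 6 in AT3 tumors (36.0%). Naaladl2 differed by 3.37 ± 0.35. The 3 called higher in AT3 tumors were Immp2l (-1.96 ± 0.41), Macrod2 (-1.35 ± 0.32) and Magi2. On the common scale, Immp2l had 175, 184, 188 and 95.8 normalized counts in untreated M/D tumors and 912, 339 and 721 in untreated AT3 tumors, and 377, 170, 146 and 163 against 466, 271 and 196 with NAM. Immp2l has the shortest transcript of the genes shown by sequence (1147 bases, 7 exons), and Rora and Diaph2 have transcripts of 10878 and 8439 bases. Once the trend with transcript length was removed, Immp2l, Rora and Diaph2 were no longer called with NAM in AT3 tumors. Whether transcript length relates to the direction of their changes with NAM was not tested.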

How the data were processed

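RNA sequencing of 14 whole tumors was analysed. The authors mapped paired-end reads with STAR 2.4.0 on mm10, counted them on constitutive regions of the genes of Mouse FAST DB, and deposited a normalized signal per gene, that is, counts scaled by DESeq2 for M/D and AT3 tumors apart. All samples were mapped to groups by their labels, and 0 columns of values were unmapped. The values were whole multiples of a step per tumor, which gave back whole reads for 100% of values (tolerance of 0.01 of a read), and depth was taken from these. Intervals and floors cover counting error only.

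Linear models with a mean-variance trend (limma 3.58.1, R 4.3.3) were fitted to log2(normalized count + 1) over all genes that reached a mean of 10 in any group compared. Genes that reached an unadjusted p of 0.05 or less and changed by 1.5-fold or more were called, and p-values were also adjusted by Benjamini-Hochberg over all genes tested. Fold changes on this scale are understated for low genes. Within a model, values were used as deposited. Comparisons between models used values of all 14 tumors rescaled by median ratios, the factors being 1.1 to 1.166 for M/D and 0.837 to 0.895 for AT3 tumors. Transcript lengths and spans other than those of the deposited table came from GENCODE vM21, whose chromosomes are those of mm10, and start sites from RefSeq. The trend of each tumor with transcript length was removed by a spline with 4 degrees of freedom.

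Genes were named if they were among up to 8 per direction with the largest called change and a mean of at least 50 in a group, had an adjusted p of at most 0.05, were extreme or next to the threshold in span, were among the 5 with the highest counts per model, or lie in common fragile sites. Other genes in the text were named as examples of a list. The long genes, the gene lists and the tests were chosen with earlier results of these data known. Alternatives were edgeR 4.0.16 and DESeq2 1.42.0 on recovered reads, other pseudocounts, filters and scalings, a replicate block and fits without each tumor. Fits were tested on simulated data. Marker lists without a value in the report (skeletal muscle, T cell, myeloid) had 0, 0 and 2 genes called higher with NAM in AT3 tumors. Values of some genes are not reported here.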

Additional observations from a re-analysis of the deposited data

Results flagged for a closer look

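In 40 of the 216 groups of 4 M/D tumors examined for a named long gene, 1 tumor lay apart from the other 3 by a gap larger than Dixon's critical value. Chance gives this in about 1 of 20 groups of continuous values, a rate that does not hold for groups with tied zeros such as that of Il1rapl2, with 1 tumor at 3.68 and 3 at 0, so the 40 are not set against it. Groups of 3 AT3 tumors were not examined. M/D NAM tumor 1 accounted for 11 of the 40 and untreated tumor 2 for 10. In M/D NAM tumor 1 the normalized counts that stood apart were those of Rabgap1l (11382), Arhgap15 (5355), Elmo1 (3076), Pcdh9 (2794), Gmds (2193), Pcdh11x (1995), Hdac9 (1416), Pde4d (1167), Alk (564), Immp2l (420) and Stpg2 (27.2). This is the tumor with the high B cell and low epithelial markers, and the part of these cells in the 11 values was not tested. In NAM tumor 4 they were those of Cdh13 (7719), Prkg1 (3974), Csmd1 (3071), Camta1 (2339), Hpse2 (1791), Dpyd (725) and Lrp1b (139), in NAM tumor 2 those of Diaph2 (161) and Lhfpl3 (95.0), and in NAM tumor 3 those of Lama2 (2794) and Il1rapl2 (3.68). Among untreated M/D tumors, tumor 2 stood apart for Camta1 (4210), Large (4185), Nfia (1317), Slit3 (1254), Pde4d (762), Arhgap6 (505), Astn2 (393), Ryr3 (89.1), Pkhd1 (82.6) and Cntnap2 (60.8). Tumor 1 stood apart for Celf2 (3280), tumor 3 for Lrp1b (40.6), Gabrg3 (35.3) and Stpg2 (2.25), and tumor 4 for Immp2l (107), Galntl6 (101), Atp8a2 (33.8) and Car10 (1.61).

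The NAM effect differed between the models for 16 long genes by the interaction term of limma without adjustment, and for 0 after adjustment. The AT3 minus M/D differences (log2) were 4.17 for Ptprn2, which had few reads, 2.87 for Tenm4, 2.54 for Auts2, 2.42 for Etl4, 2.39 for Pard3, 2.17 for Rora, 1.98 for Mast4, 1.61 for Kalrn, 1.51 for Diaph2, 1.47 for Large, 1.44 for Lrba, 1.32 for Exoc4, 1.31 for Slc9a9, 1.12 for Il6ra, 0.64 for Smyd3 and -1.40 for Immp2l.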

How the results depend on the processing

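The direction of the median over the long genes was positive in AT3 tumors under every alternative run, and it fell to 0.17 with the trend with transcript length removed. The cause was not tested. That alternative moved most counts: 1 long gene higher with NAM in M/D tumors, 11 higher and 5 lower in AT3 tumors, 7 with a different effect between models, 46 higher in M/D and 25 in AT3 tumors untreated, and 15 higher in AT3 tumors when treated. It also reversed the sign of Ptprg in AT3 tumors (-0.00115), of Smyd3 in the difference between models (-0.0390), and between untreated models of 6 of the 99 genes called: Elmo1 (-0.0332), Ptprg (-0.0190), Exoc4 (-0.121), Sdk1 (-0.20), Plcb1 (-0.36) and St6galnac3 (-0.07). For M/D tumors, the number higher was 1 with a pseudocount of 5, 5 without a filter, 6 by edgeR, 9 by DESeq2 and 3 with the replicate block, and the number lower was 5 without a filter, 4 by edgeR and 1 in genes of 500 kb or more in GENCODE. The last alternative, and those of the NAM-treated models, were chosen after seeing the data. By edgeR 4 long genes were higher in NAM-treated AT3 than M/D tumors.

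Leaving out 1 tumor at a time gave 0 to 5 higher and 0 to 6 lower in M/D tumors, 10 to 53 higher and 1 to 5 lower in AT3 tumors, and 4 to 26 with a different effect. It gave 2 to 12 higher in AT3 than M/D tumors when treated. Between untreated models it gave 72 to 87 higher in M/D tumors. Deviations of same-numbered tumors correlated with r of 0.11, -0.444, -0.216 and -0.186 in M/D and 0.126, 0.256 and -0.16 in AT3 tumors. With so few tumors per group, these values cannot decide whether the numbers pair tumors. The main tests treated tumors as unpaired. The replicate block gave 3 higher and 2 lower in M/D tumors, 42 and 3 in AT3 tumors, 15 of them with an adjusted p of at most 0.05 (1296 of all genes), and 14 and 2 for the difference. No paired analysis was possible between models because their tumors are different mice. Low counts limit what can be seen: 46 of the 207 long genes could be tested for NAM in neither model.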
